A study of Mus musculus with 8 samples.

Results

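The liver strips nitrogen from amino acids and disposes of it as urea. Transaminases pass amino groups to glutamate and aspartate, the ammonia that glutamate releases and the nitrogen of aspartate enter the urea cycle, and dedicated chains of enzymes break down the carbon skeletons of tyrosine, tryptophan, histidine, proline, lysine, glycine and the branched-chain amino acids. Most of these enzymes are made by hepatocytes, and several are known as targets of glucocorticoids, glucagon and fasting. The 55 genes described here cover these routes, and they were taken by symbol from the 56884 genes counted in each liver library. They comprised 7 genes of the urea cycle, 7 of glutamate, aspartate, alanine and asparagine metabolism, 5 of tyrosine, 7 of tryptophan, 3 of histidine, 3 of proline, 13 of branched-chain amino acid, 2 of lysine and 6 of glycine, serine and threonine catabolism, and 2 of the route from cysteine to taurine.

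Livers of female C57BL/6J mice aged 18 months, collected after an overnight fast, were compared, with 1 library per mouse. From the age of 2 months all mice ate a diet in which lipids supplied 45% of the energy, and they became obese on it (diet-induced obese, DIO). After 4 months, the DIO group (n = 3 libraries) stayed on that diet, and in the DIO + DHA group (n = 5) 15% by weight of the dietary lipids was exchanged for a fish oil concentrate rich in docosahexaenoic acid (DHA, 683.4 mg per g). The concentrate also carried eicosapentaenoic acid and other n-3 fatty acids, no lean control group was part of the comparison, and both groups differed in nothing else that the labels state. The comparison asked which liver transcripts differed between obese aged mice with and without the supplement.

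All 55 genes were found in the count files. Libraries held between 1723800 and 5690347 counts, and DIO replicate 1 was the shallowest. Levels are given as CPM (counts scaled to a common library total) after TMM scaling, which sets libraries of different depth and composition on a common scale. The counts came from the 3′ ends of transcripts, so CPM values are compared for 1 gene between groups and not between genes. Hepatocyte markers summed to 129000 to 137000 CPM in the DIO libraries and 133000 to 149000 CPM in the DIO + DHA libraries, which overlapped, and none of the 13 was at 0. Of these 13, 3 were called higher and 5 lower. In bulk liver RNA, fewer cells of a type and less RNA per cell cannot be told apart.

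Other tissues and cell types differed between the groups. All 26 skeletal muscle markers were higher in the DIO + DHA group, with a summed level of 53.4 to 59.5 CPM in DIO and 1600 to 1750 CPM in DIO + DHA libraries, and 3 of them (Mb, Casq1 and Trim63) were at 0 in every DIO library. Of 13 squamous epithelium markers 6 were called higher (sums 176 to 192 against 264 to 278 CPM), with 9 keratinocyte genes at 0 in every DIO library. Of 9 adipocyte markers 5 were called higher and 1 lower (sums 55.1 to 64.7 against 146 to 176 CPM). Of 18 macrophage and Kupffer cell markers 13 were called lower and 1 higher, and their sum went from 1010 to 1100 CPM down to 578 to 611 CPM. Of 12 tested T and NK cell markers 8 were called lower (sums 147 to 166 against 54.3 to 61.7 CPM), as were 3 of 10 sinusoidal endothelial markers (243 to 272 against 183 to 208 CPM). Of 10 stellate cell markers 2 were called lower and 1 higher (320 to 328 against 285 to 303 CPM). The 1 called higher was Des, which is also among the 26 skeletal muscle markers. An alternative scaling left out the muscle, squamous, adipocyte, macrophage, T and NK cell, and B and plasma cell markers. All 21 members called below were still called with it. Endothelial markers, and stellate markers other than Des, stayed in that scaling. Such a scaling alters only the factors between libraries, so it cannot show whether these tissues add counts to a member. The part of these tissues and cell types in the results was not tested. Among the members, skeletal muscle is known to make Got1, Got2, Gpt2 and Bcat2, adipocytes Gpt2 and Bcat2, and macrophages Arg1 and Kynu.

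**Figure D1:**
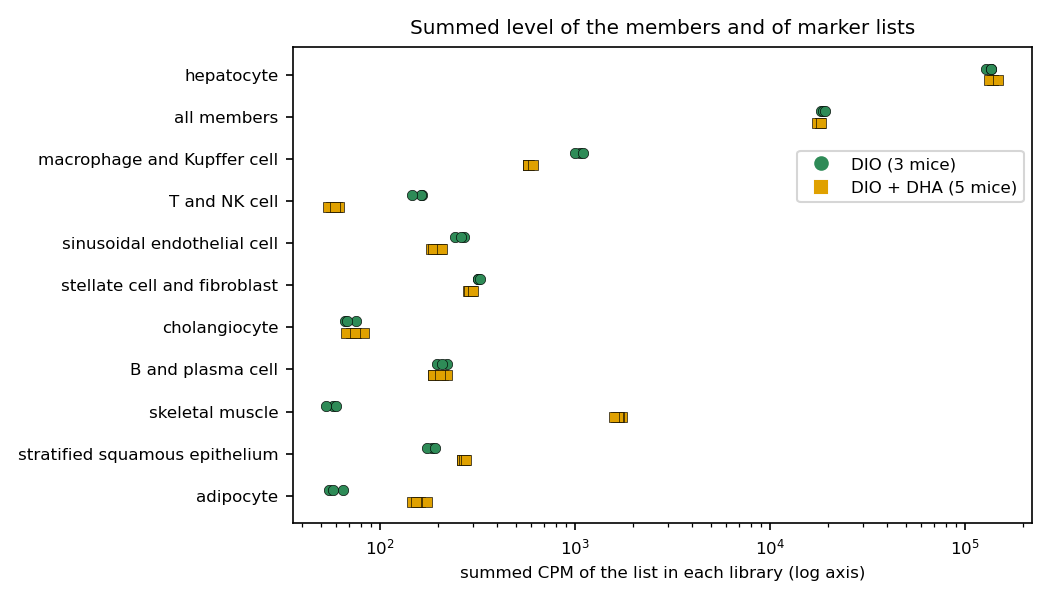
Summed CPM (log axis) of the 55 members and of marker lists in each library, with circles for the 3 DIO mice and squares for the 5 DIO + DHA mice. The hepatocyte sums overlapped, the skeletal muscle sum lay at 53.4 to 59.5 CPM in DIO and 1600 to 1750 CPM in DIO + DHA, and the macrophage sum at 1010 to 1100 and 578 to 611 CPM.

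Genes of amino acid catabolism moved in both directions. Of the 55, 53 passed the filter on low counts, and 21 of these were called by edgeR's quasi-likelihood test at a Benjamini-Hochberg adjusted p under 0.05 over all 12412 genes tested, which is 39.6% of the members beside 15.2% of all genes. In the DIO + DHA group 9 were higher (17%, beside 7.89% of all genes) and 12 lower (22.6%, beside 7.28%). Members were expressed at a median of 189 CPM and all tested genes at 10 CPM. Among genes averaging at least 20 CPM, 20 of 49 members were called (40.8%), beside 25.2% of all such genes. The median log2 fold change over the 53 was -0.03, beside 0.001 over all tested genes, and the members summed to 18400 to 19200 CPM in DIO and 17600 to 18400 CPM in DIO + DHA libraries. These sums overlapped between the groups. As a share of all counts, the members took 1.88 to 1.90% in DIO and 1.77 to 1.82% in DIO + DHA libraries. This share was not TMM-scaled, and it was lower without overlap.

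Most called changes were small. The median absolute log2 fold change of the 21 called members was 0.43, and Prodh was the 1 called member that changed by more than 1 on the log2 scale. In 27 members (50.9%, beside 18.4% of all genes) no library of one group overlapped those of the other. Among all genes averaging at least 20 CPM, this held for 1198 of 4188. The 27 members included all 21 called members and 6 that were not called (Gstz1, Fah, Tdo2, Aldh4a1, Mccc2 and Hibch). By the rule that limma-voom's log odds of change, B, be above 0, 14 members were called (26.4%, beside 6.93% of all genes), 6 higher and 8 lower.

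**Figure D2:**
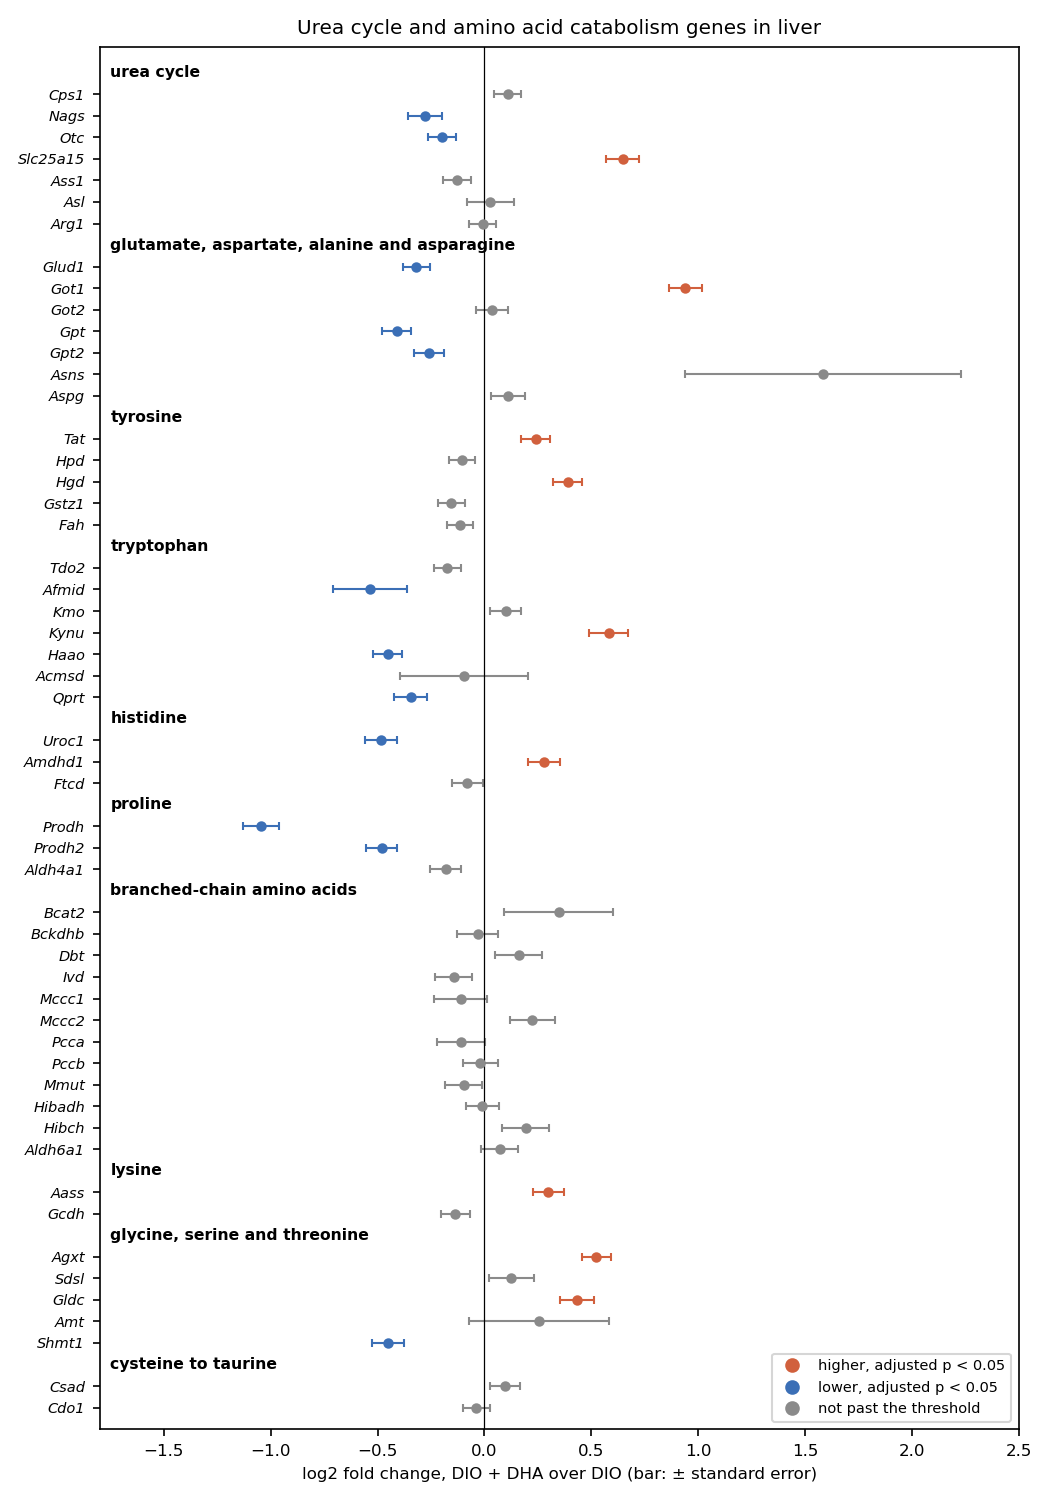
Log2 fold change of the 53 tested members in DIO + DHA over DIO livers, grouped by pathway. Points are edgeR estimates with bars of ± 1 standard error, in orange for the 9 called higher, blue for the 12 called lower and grey for the rest; proline genes lay to the left of 0 and all branched-chain points were grey.

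The largest rise among called members was that of Got1, the cytosolic aspartate aminotransferase, which interconverts glutamate and aspartate outside the mitochondrion. The 250 bases before its start (RefSeq, build GRCm38.p6, chr19:43524606-43524855, minus strand) are shown because Got1 was the called member with the largest increase. The gene itself lies on chromosome 19 at 43488191 to 43513044 of GRCm39, the build of the counts. Capitals mark every match to AGGTCA, the core hexamer of nuclear receptor sites, and to CCAAT, the CCAAT box, or its reverse ATTGG.
Got1 upstream: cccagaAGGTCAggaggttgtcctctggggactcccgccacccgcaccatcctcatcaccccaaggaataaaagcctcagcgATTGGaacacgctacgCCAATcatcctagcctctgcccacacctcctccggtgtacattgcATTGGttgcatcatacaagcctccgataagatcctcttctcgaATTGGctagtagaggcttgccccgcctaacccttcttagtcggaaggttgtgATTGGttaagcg
A search of both strands for these motifs, for TGACG and for GGGCGG found 1 AGGTCA and 5 CCAAT matches here and neither of the others. Of 32851 RefSeq windows of this length, 14% held AGGTCA and 33.8% held CCAAT, and of the 52 windows listed for 45 of the members, 26.9% and 46.2% did. The corresponding shares were 17.8% and 15.4% for TGACG and 32.7% and 46.2% for GGGCGG. The upstream window of Prodh, the gene with the largest fall, held none of these motifs.

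Got1 was at 127, 138 and 139 CPM in the 3 DIO libraries and at 260, 246, 273, 245 and 277 CPM in the 5 DIO + DHA libraries. Every DIO + DHA library lay far above every DIO library. Means were 135 ± 6.64 CPM (SD, n = 3) and 260 ± 14.8 CPM (SD, n = 5), and the rise was 0.94 on the log2 scale (SE 0.077, edgeR adjusted p = 3.62e-15). Its mitochondrial counterpart Got2 stood at 162 to 177 CPM in DIO and 166 to 182 CPM in DIO + DHA livers (log2 fold change 0.04, SE 0.075, edgeR adjusted p = 0.833). Skeletal muscle also makes both aspartate aminotransferases, and its marker sum of 1600 to 1750 CPM in the DIO + DHA group, given above, stands beside the Got1 rise; its part was not tested.

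The ratio between both isoforms was compared within each library, where depth and scaling cancel out. Counts of Got1 over Got2 averaged 0.795 in DIO and 1.5 in DIO + DHA livers, a 1.89-fold increase, with log2 ratios from -0.48 to -0.23 in the former and from 0.42 to 0.72 in the latter (2-sided exact permutation test, p = 0.0179, the smallest that the 56 assignments of 8 libraries allow). Of 8 pairs of related members listed, 6 could be compared, and 3 had an exact permutation p of 0.0179, or 0.0357 after Benjamini-Hochberg adjustment over the 6 pairs. Gpt to Gpt2, Pcca to Pccb and Acmsd to Qprt did not pass it, with differences in the log2 ratio of -0.15, -0.06 and 0.26 (exact permutation p = 0.0536, 0.696 and 0.482).

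Of the 7 genes of glutamate, aspartate, alanine and asparagine metabolism, Got1 was called higher and Glud1, Gpt and Gpt2 lower. Glud1, glutamate dehydrogenase, which frees ammonia from glutamate in mitochondria, was at 640, 617 and 594 CPM in DIO and 479, 498, 485, 506 and 501 CPM in DIO + DHA livers. No library of one group reached the other, and the log2 fold change was -0.32 (SE 0.064, edgeR adjusted p = 1.36e-04). Gpt, the alanine aminotransferase of the cytosol, was at 434, 395 and 455 CPM against 317, 312, 323, 336 and 321 CPM. It was lower in all 5 DIO + DHA mice, 1.33-fold by the group estimate (log2 fold change -0.41, SE 0.068, edgeR adjusted p = 3.95e-06). Gpt2, the mitochondrial form, was at 294, 281 and 289 CPM in DIO and 229, 247, 250, 254 and 221 CPM in DIO + DHA livers, again without overlap (log2 fold change -0.26, SE 0.071, edgeR adjusted p = 6.45e-03). The alanine aminotransferases thus both fell, while of the aspartate pair the cytosolic gene rose.

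Asparagine genes gave little. Asns, asparagine synthetase, had 0 to 4 counts per DIO library and 3 to 9 per DIO + DHA library. In all these were 6 counts over 3 libraries and 28 over 5. Its log2 fold change was large but uncertain, and it was not called (1.58, SE 0.645, edgeR adjusted p = 0.0925). Aspg, an asparaginase, stood at 110 to 121 and 116 to 131 CPM, with overlapping groups (log2 fold change 0.11, SE 0.08).

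The urea cycle enzymes themselves changed little, and its mitochondrial carrier rose. Slc25a15, which carries ornithine into the mitochondrion in exchange for citrulline, was at 174, 140 and 146 CPM in DIO and 244, 241, 226, 232 and 241 CPM in DIO + DHA livers. The lowest DIO + DHA library was above the highest DIO library, and the level rose 1.57-fold (log2 fold change 0.65, SE 0.077, edgeR adjusted p = 1.37e-09). Otc, ornithine transcarbamylase, which makes citrulline inside the mitochondrion, was at 393, 404 and 383 CPM against 343, 343, 344, 335 and 349 CPM. Its libraries did not overlap either, but the difference was small (log2 fold change -0.20, SE 0.066, edgeR adjusted p = 0.0302). That call was lost without any of the 3 DIO libraries in turn (adjusted p = 0.08 without replicate 1, 0.183 without replicate 4 and 0.0547 without replicate 5) and without DIO + DHA replicate 1 (0.0624).

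Nags makes N-acetylglutamate, the activator that carbamoyl phosphate synthetase requires. Its level was 120, 118 and 128 CPM in DIO and 102, 93.5, 98.5, 104 and 105 CPM in DIO + DHA livers (log2 fold change -0.28, SE 0.08, edgeR adjusted p = 0.0103), with no overlap between groups, and the call was lost without DIO replicate 5 (-0.23, adjusted p = 0.115). The other 4 urea cycle genes overlapped between groups and were not called. Cps1, carbamoyl phosphate synthetase, was at 803 to 833 CPM in DIO and 827 to 938 CPM in DIO + DHA livers (log2 fold change 0.11, SE 0.063). Ass1 and Asl, which build and split argininosuccinate, had log2 fold changes of -0.13 (SE 0.067) and 0.03 (SE 0.111). Arg1, arginase, which releases urea, averaged 1290 ± 66.5 CPM (SD, n = 3) and 1290 ± 39.2 CPM (SD, n = 5), with a log2 fold change of -0.01 (SE 0.062). The summed urea cycle level was 3450 to 3660 CPM in DIO and 3510 to 3670 CPM in DIO + DHA livers.

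Proline catabolism showed the deepest fall of the set. Prodh, proline dehydrogenase, which starts proline breakdown on the inner mitochondrial membrane, was at 254, 233 and 313 CPM in DIO and 126, 133, 146, 133 and 114 CPM in DIO + DHA livers. The highest DIO + DHA library was well below the lowest DIO library. The mean went from 267 ± 41.3 (SD, n = 3) to 130 ± 11.8 CPM (SD, n = 5), 2.06-fold lower by the fit (log2 fold change -1.05, SE 0.083, edgeR adjusted p = 2.42e-14). Prodh2, which oxidizes hydroxyproline, a product of collagen breakdown, was at 356, 318 and 361 CPM against 250, 223, 247, 251 and 262 CPM. It was also lower in every DIO + DHA library (log2 fold change -0.48, SE 0.071, edgeR adjusted p = 3.37e-07).

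Prodh fell more than Prodh2. The ratio of their counts went from 0.768 to 0.527, a difference of -0.54 in the log2 ratio, with values of -0.48 to -0.21 in DIO and -1.21 to -0.75 in DIO + DHA livers (exact permutation p = 0.0179). Aldh4a1, the dehydrogenase that both routes share next, stood at 195, 199 and 218 CPM in DIO and at 184, 184, 182, 183 and 169 CPM in DIO + DHA livers. Its groups did not overlap, but it was not called (log2 fold change -0.18, SE 0.073, edgeR adjusted p = 0.0901). All 3 proline genes together summed to 751 to 892 CPM in DIO and 540 to 575 CPM in DIO + DHA livers, without overlap.

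**Figure D3:**
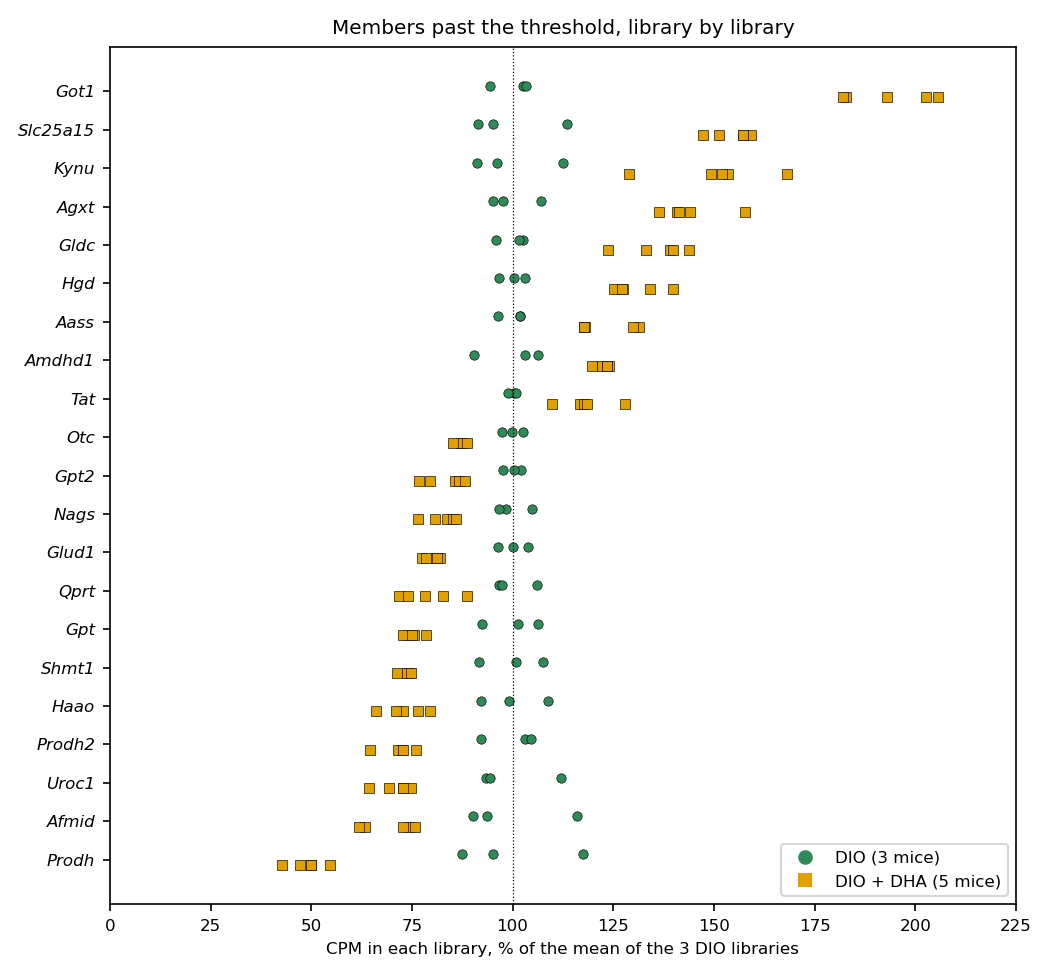
CPM of the 21 called members in each library as a percent of the mean of the 3 DIO libraries, ordered by fold change (circles DIO, squares DIO + DHA). Squares and circles are separate in every row, from Got1 with squares at 182 to 206% to Prodh with squares at 42.8 to 54.8%.

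Tryptophan is degraded through kynurenine, either to energy or to the nicotinamide ring of NAD. The summed level of its 7 genes was 1970 to 2090 CPM in DIO and 1680 to 1860 CPM in DIO + DHA livers. Haao, hydroxyanthranilate dioxygenase, was at 599, 644 and 708 CPM in DIO and 474, 430, 517, 462 and 497 CPM in DIO + DHA livers. The groups were separate and Haao fell 1.37-fold (log2 fold change -0.45, SE 0.068, edgeR adjusted p = 5.35e-07). Qprt, which makes the NAD precursor from quinolinate, was at 179, 180 and 196 CPM against 153, 133, 164, 137 and 145 CPM. It too was lower in all 5 DIO + DHA libraries (log2 fold change -0.35, SE 0.078, edgeR adjusted p = 7.09e-04).

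Kynu went the other way. It encodes kynureninase, the step just before that of Haao, and was at 65.8, 77.0 and 62.3 CPM in DIO and 105, 104, 102, 88.1 and 115 CPM in DIO + DHA livers (log2 fold change 0.58, SE 0.093, edgeR adjusted p = 2.15e-06). Each DIO + DHA library exceeded all DIO libraries. Macrophages also make kynureninase, and the macrophage marker sum was lower in the DIO + DHA group, 578 to 611 against 1010 to 1100 CPM. Kmo, kynurenine monooxygenase, was not called (log2 fold change 0.10, SE 0.073).

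Tdo2, tryptophan dioxygenase, the entry enzyme, was at 932, 967 and 902 CPM in DIO and 804, 838, 841, 773 and 885 CPM in DIO + DHA livers. Its libraries did not overlap, but it missed the threshold (log2 fold change -0.17, SE 0.063, edgeR adjusted p = 0.0542) and passed it without DIO + DHA replicate 6 (-0.20, adjusted p = 0.0168). Afmid, kynurenine formamidase, was called lower at a low level (13.5, 13 and 16.7 against 9.12, 10.7, 8.92, 10.5 and 10.9 CPM, without overlap, log2 fold change -0.54, SE 0.174, edgeR adjusted p = 0.0258). That call was lost without DIO replicate 5 (-0.37, adjusted p = 0.325) or DIO + DHA replicate 1 (-0.50, adjusted p = 0.0691). Moreover, 99.2% of the last 500 exon bases of Afmid lie within exons of Gm20708 on the same strand, so its counts are uncertain. Acmsd, which diverts the pathway away from NAD, had only 3.8 ± 0.866 (SD, n = 3) and 3.7 ± 1.23 CPM (SD, n = 5).

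Tyrosine genes split. Hgd, homogentisate dioxygenase, which opens the aromatic ring, was at 284, 274 and 292 CPM in DIO and 361, 355, 380, 360 and 396 CPM in DIO + DHA livers. All DIO + DHA libraries were above all DIO libraries (log2 fold change 0.39, SE 0.069, edgeR adjusted p = 1.85e-05). Tat, tyrosine aminotransferase, the entry enzyme and a classic glucocorticoid target, was at 300, 301 and 295 CPM against 328, 349, 382, 352 and 354 CPM. The rise was small but without overlap (log2 fold change 0.24, SE 0.069, edgeR adjusted p = 0.0105), and it was not called without DIO + DHA replicate 4 (0.20, adjusted p = 0.0595). The enzymes around Hgd were not called, with log2 fold changes of -0.10 (SE 0.061) for Hpd just before it and of -0.16 (SE 0.064) and -0.11 (SE 0.062) for Gstz1 and Fah after it.

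In the histidine route, neighbouring enzymes moved apart. Uroc1, urocanase, was at 277, 231 and 233 CPM in DIO and 180, 185, 159, 171 and 180 CPM in DIO + DHA livers (log2 fold change -0.48, SE 0.075, edgeR adjusted p = 1.27e-06). Amdhd1, the enzyme that follows it, was at 143, 163 and 168 CPM against 193, 196, 189, 195 and 195 CPM. Both genes had separate groups, Uroc1 below and Amdhd1 above the DIO libraries. The Amdhd1 rise was the smaller (log2 fold change 0.28, SE 0.075, edgeR adjusted p = 5.58e-03) and missed the threshold without DIO replicate 1 (0.23, adjusted p = 0.053). Ftcd, which passes the last carbon unit to folate, overlapped between groups (log2 fold change -0.08, SE 0.072).

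Glycine, serine and threonine genes included some of the clearest rises. Agxt, alanine-glyoxylate aminotransferase, which detoxifies glyoxylate to glycine, was at 552, 538 and 605 CPM in DIO and 795, 770, 891, 814 and 798 CPM in DIO + DHA livers. The lowest DIO + DHA value was above the highest DIO value and the level rose 1.44-fold (log2 fold change 0.52, SE 0.067, edgeR adjusted p = 8.57e-09). Gldc, the decarboxylase of the glycine cleavage system, was at 100, 107 and 106 CPM against 145, 146, 150, 139 and 129 CPM. It was higher in all 5 DIO + DHA libraries (log2 fold change 0.43, SE 0.081, edgeR adjusted p = 3.77e-05).

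Shmt1, the cytosolic enzyme that converts serine and glycine into each other, fell. It was at 159, 187 and 175 CPM in DIO and 129, 129, 128, 130 and 124 CPM in DIO + DHA livers (log2 fold change -0.45, SE 0.076, edgeR adjusted p = 6.15e-06). The 5 DIO + DHA values lay within a few CPM of each other and below every DIO value. An antisense overlap with Smcr8 covers 36.8% of the last 500 exon bases of Shmt1, and the strand setting of the counting was not given in the sources used here. Amt, the partner of Gldc in glycine cleavage, was decided by 1 library: it was at 38.8 CPM in DIO replicate 1, at 14.1 and 14.9 CPM in the other DIO libraries and at 17.8 to 26.5 CPM in DIO + DHA livers. With all libraries Amt was not called (log2 fold change 0.25, SE 0.328, edgeR adjusted p = 0.721), and without DIO replicate 1 it was (0.65, adjusted p = 2.14e-03). Sdsl, related to serine dehydratase, overlapped between groups (log2 fold change 0.13, SE 0.105). Tdh, threonine dehydrogenase, had 0 counts in all 8 libraries, which allows at most 0.527 to 1.74 CPM by the limit of 3 counts per library, counting error alone considered.

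None of the 12 branched-chain amino acid genes tested was called by edgeR, nor in any of the 18 alternative analyses, and their median log2 fold change was -0.02, with 1 at an unadjusted p under 0.05. They span the transaminase Bcat2, the dehydrogenase subunits Bckdhb and Dbt and the enzymes that follow, and their sum was 989 to 1020 CPM in DIO and 965 to 1050 CPM in DIO + DHA livers. Log2 fold changes ran from -0.14 for Ivd, isovaleryl-CoA dehydrogenase, (SE 0.086) to 0.35 for Bcat2 (SE 0.253), which was at a low 3.38 to 8.71 CPM over all libraries, beside the muscle marker sums of 53.4 to 59.5 CPM in DIO and 1600 to 1750 CPM in DIO + DHA livers. Bckdhb and Dbt, and Mmut, Hibadh, Hibch and Aldh6a1 of the later steps to succinyl-CoA and propionyl-CoA, lay between -0.10 for Mmut (SE 0.087) and 0.19 for Hibch (SE 0.11). Bckdha could not be assessed, with 0 to 7 counts per library, and exons of B3gnt8 on the other strand cover its last 500 exon bases entirely (100%).

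The subunits of methylcrotonyl-CoA carboxylase, an enzyme of leucine breakdown, shifted relative to each other. Mccc1, the biotin-carrying subunit, was at 29.8, 27.6 and 28.9 CPM in DIO and 25, 24.5, 26.4, 28.8 and 27.3 CPM in DIO + DHA livers. Mccc2, the other subunit, was at 38.8, 37.5 and 44.2 CPM against 49.2, 49.6, 44.6, 47.3 and 45.2 CPM. Neither was called alone (log2 fold changes -0.11, SE 0.123, and 0.22, SE 0.105, edgeR adjusted p = 0.646 and 0.161), but the log2 ratio of Mccc1 to Mccc2 was -0.61 to -0.38 in DIO and -1.02 to -0.72 in DIO + DHA livers (difference -0.36, exact permutation p = 0.0179). Pcca and Pccb, the subunits of propionyl-CoA carboxylase, gave no such separation, and antisense exons of Ggact cover 48.2% of the last 500 exon bases of Pcca.

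**Figure D4:**
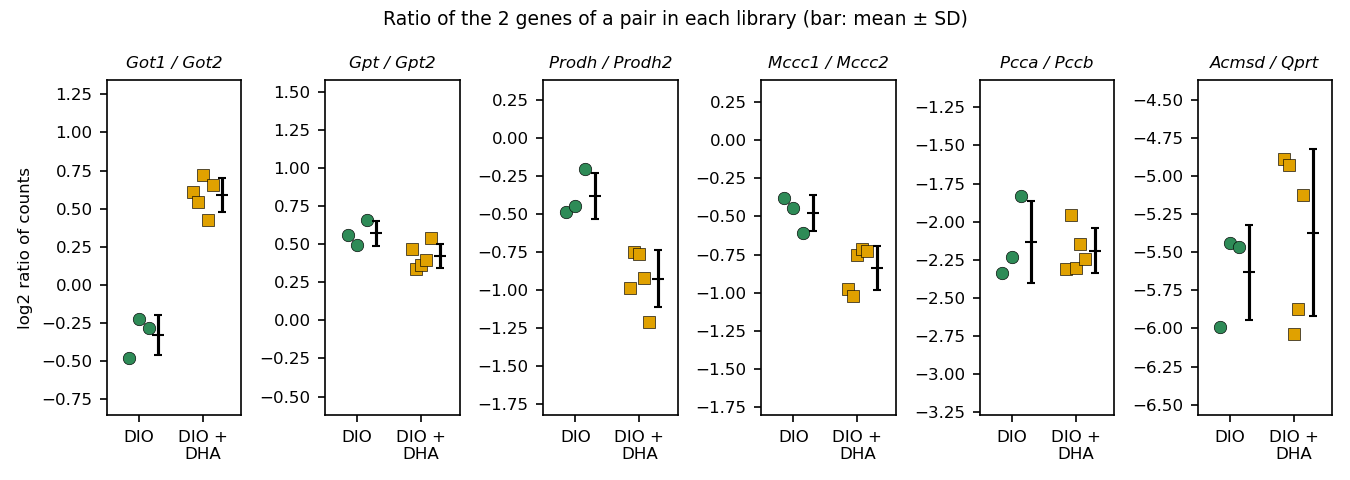
Log2 ratio of the counts of both genes of a pair in each library (circles the 3 DIO mice, squares the 5 DIO + DHA mice, bars mean ± SD; each panel spans the same height of the log2 axis). The groups were separate for Got1 to Got2, Prodh to Prodh2 and Mccc1 to Mccc2 and overlapped for the other pairs.

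Of the lysine genes, Aass, the bifunctional enzyme that starts lysine breakdown, was at 231, 231 and 219 CPM in DIO and 267, 298, 268, 295 and 267 CPM in DIO + DHA livers. Its groups were separate (log2 fold change 0.30, SE 0.072, edgeR adjusted p = 1.65e-03), whereas those of Gcdh, glutaryl-CoA dehydrogenase further down, overlapped (log2 fold change -0.14, SE 0.068). Cdo1 and Csad, which take cysteine to taurine, were not called, at 1860 ± 53.7 (SD, n = 3) and 1810 ± 125 CPM (SD, n = 5) for Cdo1 and 325 ± 19 and 349 ± 17.8 CPM for Csad.

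A wider set of 125 genes of amino acid metabolism, listed by pathway, also moved in both directions. Of 115 tested, 12 were called higher and 22 lower, in all 29.6%. Beside this stand 15.2% of all genes and 25.2% of all genes averaging at least 20 CPM, a level that some of the 115 do not reach. The median log2 fold change of the 115 was -0.05. The enzyme with the largest rise belonged to methyl group and sulfur metabolism, of whose 13 tested genes 3 rose and 3 fell. Bhmt, which remethylates homocysteine with betaine, averaged 2310 ± 47.8 CPM in DIO (SD, n = 3) and 5550 ± 183 CPM in DIO + DHA livers (SD, n = 5; log2 fold change 1.27, SE 0.061, edgeR adjusted p = 6.23e-25). Cth, cystathionine gamma-lyase, and Mat1a, which makes the methyl donor S-adenosylmethionine, rose by 0.72 and 0.37 on the log2 scale. Sqor, which oxidizes sulfide, fell by 0.44.

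Around proline, ornithine and glutamate, 2 of 14 tested genes rose and 1 fell. Slc25a22, a mitochondrial glutamate carrier, was at 57.4 to 65.1 CPM in DIO and 120 to 139 CPM in DIO + DHA livers (log2 fold change 1.07, SE 0.089, edgeR adjusted p = 6.25e-15). Oat, ornithine aminotransferase, which joins ornithine to the proline and glutamate routes, rose from 748 ± 19.9 to 1180 ± 30.7 CPM (log2 fold change 0.66, SE 0.063, edgeR adjusted p = 1.24e-12). Glul, glutamine synthetase, the perivenous scavenger of ammonia, fell from 721 ± 50.7 to 496 ± 32.4 CPM (log2 fold change -0.54, SE 0.067, edgeR adjusted p = 4.46e-09). Of 10 perivenous markers, Glul and Oat among them, 2 were called higher and 3 lower. The sums of all 10 overlapped, at 5630 to 5850 CPM in DIO and 5140 to 5730 CPM in DIO + DHA livers. Without Glul and Oat, the other 8 summed to 4221 to 4302 against 3486 to 4046 CPM, without overlap. Most of that sum was Cyp2e1, at 3100 to 3180 CPM in DIO and 2440 to 2950 CPM in DIO + DHA livers. Of 10 periportal markers, which mark the zone where urea is made, 3 were called higher and 1 lower, and their sums overlapped (3430 to 3590 against 3480 to 3710 CPM).

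Of 13 tested serine and glyoxylate genes outside the 55, 4 fell, 1 rose and 8 were not called. Hoga1 and Hao1, which feed glyoxylate from hydroxyproline and from glycolate, fell by 0.64 and 0.42 on the log2 scale, beside the rise of Agxt and the fall of Prodh2. Agxt2 and Sds, serine dehydratase, fell by 0.49 and 0.66. In histamine metabolism Hdc, which makes histamine from histidine, and Hnmt, which methylates it, fell by 1.21 and 0.72, Hdc from no more than 6.75 CPM.

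In the other lists, 2 of 10 tested tryptophan and NAD genes fell (Nampt by 0.66 and Naprt by 0.22 on the log2 scale, both salvage enzymes of NAD synthesis) and none rose. Of 15 further branched-chain genes 3 rose and none fell, among them Hsd17b10 by 0.73 (log2 fold change, from 377 ± 24.9 to 627 ± 30.2 CPM) and Abat by 0.26. Of 9 lysine genes Etfa rose by 0.22 and Pipox fell by 0.38. Of 12 amino acid transporters 3 fell, the neutral amino acid carriers Slc38a2 and Slc38a3 by 0.39 and 0.31 and the glutamate carrier Slc1a2 by 0.42. Of 9 tested genes of serine synthesis and the amino acid stress response, Atf5 rose by 0.73 and Chac1 and Cebpg fell by 1.64 and 0.28.

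Of 12 genes listed as regulators of these enzymes (transcription factors, cofactors and the receptors Gcgr and Insr), 1 rose and 3 fell. Ppargc1a, a coactivator of fasting metabolism, was at 6.75, 7.93 and 9.23 CPM in DIO and 33.5, 41.9, 36.7, 31.1 and 30.1 CPM in DIO + DHA livers (log2 fold change 2.04, SE 0.16, edgeR adjusted p = 7e-16). Skeletal muscle and adipocytes also express it, and their marker sums rose with it. Cebpb, a basic leucine zipper factor, fell from 195 ± 4.99 to 94.1 ± 5.42 CPM (log2 fold change -1.05, SE 0.077, edgeR adjusted p = 5.14e-17). Beside it, the macrophage marker sum was 1010 to 1100 CPM in DIO and 578 to 611 CPM in DIO + DHA livers, and its part was not tested. Hnf4a, a nuclear receptor that maintains hepatocyte genes, fell by 0.53, and Klf15, which activates amino acid breakdown in fasting, by 0.30 on the log2 scale (edgeR adjusted p = 7.12e-08 and 0.0234).

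**Figure D5:**
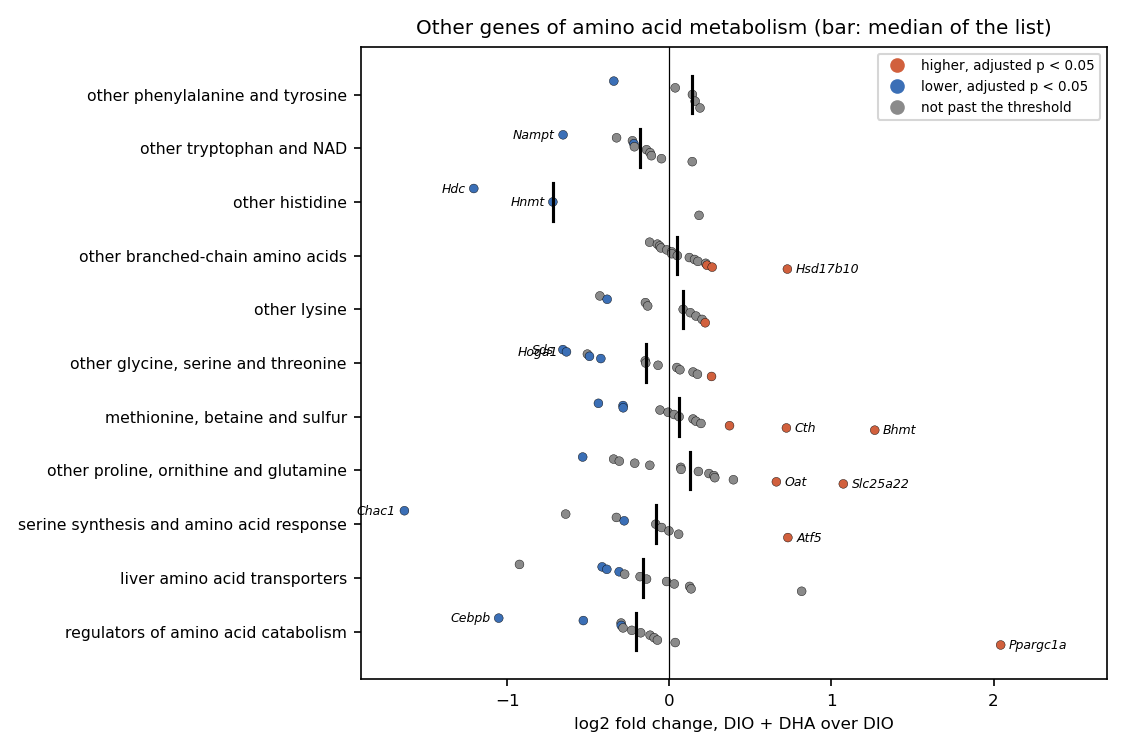
Log2 fold change (DIO + DHA over DIO) of the 115 tested genes of amino acid metabolism outside the 55, by list, coloured as called higher, called lower or neither, with a bar at the median of each list. Bhmt, Slc25a22 and Ppargc1a stand farthest right and Chac1 and Hdc farthest left.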

How the data were processed

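Poly(A) RNA of 8 livers (3 DIO and 5 DIO + DHA mice) was sequenced by a 3′ method derived from SCRB-seq. The deposited values were raw read counts per gene, which the authors obtained with featureCounts 1.6.0 (GENCODE vM33) from trimmed reads placed on GRCm39 by STAR 2.7.9a, after quality checks with FastQC 0.11.8. Whether reads were collapsed by molecular identifier and whether counting used strand are not given in the sources used here. Gene names came from GENCODE vM39 (56323 of 56884 identifiers).

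A gene was tested unless, in both groups, over 50% of libraries had fewer than 5 of its counts, and 12412 remained. Counts were scaled by TMM and tested with edgeR 4.0.16 (robust quasi-likelihood test, R 4.3.3), with Benjamini-Hochberg adjustment over all tested genes at 0.05. The common biological coefficient of variation was 0.0801. Library pairs were compared by a chi-square value averaged over genes, with no p-value. Within a group this mean ran from 1.93 to 5.2, more than independent counts alone would give. Ratios of gene pairs were compared by exact permutation (SciPy 1.17.1). DESeq2 1.42.0, limma-voom 3.58.1, other scalings and filters, and fits without each library served as alternatives. The edgeR fit was tested on simulated data. Members, lists and tests were chosen with earlier results of these data known. All members were accounted for, called ones with each library's value, and of each other list at most 4 called genes with the smallest p were named; some genes are not reported here. Upstream sequences came from RefSeq windows on GRCm38.p6, cut to the 250 bases before each start. Counting limits cover counting error only.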

Additional observations from a re-analysis of the deposited data

Results flagged for a closer look

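In 2 of 53 members examined, 1 library of the DIO + DHA group lay far from the other 4 by Dixon's test (critical value 0.71 for 5 libraries). Aldh4a1, the second dehydrogenase of proline breakdown, was at 169 CPM in DIO + DHA replicate 6 and at 182 to 184 CPM in the others. Csad, the decarboxylase on the way to taurine, was at 318 CPM in DIO + DHA replicate 5 and at 352 to 360 CPM in the others. Chance alone gives such a gap in about 1 of 20 groups, so 2 of 53 is no more than it would give.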

How the results depend on the processing

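Under 18 alternatives, 14 of the 21 called members kept their call in every one, 16 in every fit that left out 1 library, and none of the 21 reversed. By limma-voom's B above 0, 7 were lost (Nags, Otc, Gpt2, Tat, Afmid, Amdhd1 and Aass), and over all genes 860 were called by that rule where edgeR called 1883. DESeq2's Wald test lost Afmid (adjusted p = 0.108), and no filter on low counts lost Otc (0.088). Leaving out 1 library at a time gave 8 to 9 members higher and 9 to 13 lower. Of the uncalled members, 4 gained a call in some alternative: Amt without DIO replicate 1, Tdo2 in 5 alternatives (adjusted p down to 0.0105 with library size), and Gstz1 and Aldh4a1 with scaling by library size alone (0.0241 and 0.0413). Other pathway genes, whose alternatives were added after seeing the data, numbered 9 to 13 higher and 16 to 22 lower without 1 library. With 1 library left out, log2 fold changes near 0 changed sign, running from -0.036 to 0.126 for Asl, -0.038 to 0.035 for Arg1, -0.274 to 0.041 for Acmsd, -0.112 to 0.007 for Ftcd, -0.092 to 0.018 for Bckdhb, -0.084 to 0.038 for Pccb, -0.179 to 0.022 for Mmut, -0.065 to 0.032 for Hibadh and -0.011 to 0.15 for Aldh6a1; the cause was not tested. The differences in the log2 ratio stayed between 0.845 and 0.972 for Got1 to Got2, -0.596 and -0.458 for Prodh to Prodh2, and -0.427 and -0.312 for Mccc1 to Mccc2.

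Deviations from the group means of libraries with the same replicate number had correlations of -0.013, -0.013 and -0.011. Such deviations cancel out within each group and few numbers are shared. These values therefore cannot show whether the numbers pair the mice. With the replicate number as a replicate block, 1538 genes were called, and 9 members were higher and 12 lower, with Otc lost (adjusted p = 0.0709) and Tdo2 gained (0.0426). The ratio pairs Asns to Aspg and Bckdha to Bckdhb could not be computed because a library had 0 counts. The shallowest library held 1723800 counts, and members of a few CPM (Asns, Bcat2, Acmsd and Bckdha) could show only large differences at this depth.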
